A study of Mus musculus with 8 samples.

Results

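The 9 genes described here encode the TGF-beta ligands (Tgfb1, Tgfb2, Tgfb3), the receptors that bind them (Tgfbr1, Tgfbr2, Tgfbr3) and 3 proteins of the latent TGF-beta binding family of the matrix (Ltbp1, Ltbp2, Ltbp3). They were chosen by name, with earlier results of these data known. Each was read from 1 probe set naming that gene alone, out of 22180 genes read the same way. All 9 lay above the filter on low levels and were among the 15526 genes tested. RNA came from the thoracic annulus fibrosus, the ring of fibrocartilage around the core of the intervertebral disc, of Black 6 mice. WT and ENT1-null mice were compared at 2 and at 6 months of age, and all 4 groups were kept in standard cages. ENT1-null mice lack exons 2 to 4 of Slc29a1, the gene of a nucleoside carrier of the cell membrane, and no label names a tissue or cell type to which the deletion is limited. Each group had 2 arrays, and each array held a pool of 5 to 6 annulus tissues.

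TGF-beta is made as a precursor whose own propeptide stays wrapped around the ligand and keeps it inactive. Of the Ltbp proteins, those that bind the latent complex, Ltbp1 and Ltbp3 among them, tether it to matrix fibres until integrins, thrombospondin or proteases set the ligand free. Free ligand joins the type II receptor (Tgfbr2) to the type I receptor (Tgfbr1), often handed over by the co-receptor betaglycan (Tgfbr3), and the type I receptor phosphorylates Smad2 and Smad3. In the annulus and in cartilage this signal is known for its part in forming and maintaining collagen and proteoglycan matrix.

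Values are RMA levels on the log2 scale, differences are log2 differences given with the limma standard error (SE), and "passed" means an adjusted p below 0.05 (limma, Benjamini-Hochberg over all tested genes). Array medians lay between 6.77 and 6.82, and paired arrays of each group correlated at 0.991 to 0.992 (Pearson r) across genes, which are not independent replicates. Slc29a1 read 10.71 and 10.69 in 2 month WT, 9.21 and 9.36 in 2 month ENT1-null, 10.34 and 10.43 in 6 month WT and 8.90 and 8.80 in 6 month ENT1-null, so that both null groups lay below both WT groups (limma, −1.41 ± 0.09, adjusted p = 0.00724 at 2 months and −1.53 ± 0.09, adjusted p = 0.000354 at 6 months). The first of these calls was lost when WT array 1 or either null array of 2 months was left out (adjusted p = 0.149, 0.0616 and 0.0643), and in a fit of those 4 arrays alone (adjusted p = 0.0598). Averaged over the probe sets of the gene the differences were −0.76 and −0.84. Markers of cartilage and annulus (14 genes, Acan, Comp and Chad among them) were all above the filter on low levels. Their summed linear level was 62870 to 63140 in 2 month WT, 53100 to 56260 in 2 month ENT1-null, 52250 to 53280 in 6 month WT and 31770 to 34240 in 6 month ENT1-null. Other tissues were present in the same pools. The 8 megakaryocyte and platelet markers summed to 2404 to 5898, 9925 to 10930, 3732 to 6724 and 13930 to 15940 in those groups, in the same order. The 16 neutrophil markers summed to 8318 to 19260, 31240 to 37990, 7736 to 21040 and 56460 to 58260, and the 12 skeletal muscle markers to 3773 to 8512, 6279 to 17940, 16470 to 17780 and 2203 to 4979. The labels do not say whether both pools of any group were taken from different animals, and p-values measure only the spread between these arrays.

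Of the 7 genes that passed in any comparison, 5 have an entry in the RefSeq promoter table (GRCm38.p6), and their 250 bases before the annotated start are shown because Tgfb1 and Ltbp2 were higher and the other 3 lower in the null annulus at 6 months. The windows are chr7:25686752-25687001 (plus strand) for Tgfb1, chr1:186705990-186706239 (minus) for Tgfb2, chr4:47352972-47353221 (plus) for the outer start of Tgfbr1, chr12:84876492-84876741 (minus) for Ltbp2 and chr19:5740650-5740899 (plus) for Ltbp3. The starts used for Tgfb2 and Ltbp2 are not the outermost annotated starts of those genes, while those for Tgfb1 and Ltbp3 are. Capitals mark matches on either strand to the GC box (GGGCGG), the AP-1 site (TGANTCA), the cyclic AMP response element (TGACGTCA), the TATA box (TATAAA), the SMAD box (CAGAC) and the E-box (CACGTG), and the sequences run 5′ to 3′.
Tgfb1: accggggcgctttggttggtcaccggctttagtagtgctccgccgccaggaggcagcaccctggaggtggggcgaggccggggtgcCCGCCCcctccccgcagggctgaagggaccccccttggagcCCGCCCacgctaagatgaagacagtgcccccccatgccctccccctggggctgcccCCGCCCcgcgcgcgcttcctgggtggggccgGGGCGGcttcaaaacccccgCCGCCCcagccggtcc
Tgfb2: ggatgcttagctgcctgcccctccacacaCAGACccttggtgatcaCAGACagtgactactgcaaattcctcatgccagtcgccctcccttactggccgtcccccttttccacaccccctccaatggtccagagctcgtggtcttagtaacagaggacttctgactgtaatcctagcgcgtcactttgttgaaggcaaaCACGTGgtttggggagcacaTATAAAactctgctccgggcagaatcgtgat
Tgfbr1: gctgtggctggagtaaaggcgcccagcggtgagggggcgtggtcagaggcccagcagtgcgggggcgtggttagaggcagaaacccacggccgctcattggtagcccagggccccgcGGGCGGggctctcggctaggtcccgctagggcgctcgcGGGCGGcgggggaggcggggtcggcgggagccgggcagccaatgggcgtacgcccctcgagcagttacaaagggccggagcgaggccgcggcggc
Ltbp2: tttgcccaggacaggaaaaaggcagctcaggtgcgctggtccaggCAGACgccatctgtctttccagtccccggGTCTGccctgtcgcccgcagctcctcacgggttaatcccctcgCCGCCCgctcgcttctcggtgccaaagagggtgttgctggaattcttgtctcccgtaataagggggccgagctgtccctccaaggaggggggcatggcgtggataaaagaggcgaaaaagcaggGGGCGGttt
Ltbp3: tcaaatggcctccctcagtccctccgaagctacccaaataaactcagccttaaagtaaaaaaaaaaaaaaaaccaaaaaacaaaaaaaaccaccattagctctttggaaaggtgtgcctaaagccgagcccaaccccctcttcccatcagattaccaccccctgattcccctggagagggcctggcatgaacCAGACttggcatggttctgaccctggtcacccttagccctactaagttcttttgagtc
The Tgfb1 window held 5 GC boxes and none of the other motifs, at a GC content of 75.2%. The Tgfb2 window held 1 TATA box, at −31 to −26 from the start, with 1 E-box and 2 SMAD boxes and no GC box, at 53.6% GC. Tgfbr1 held 2 GC boxes (74.8% GC), Ltbp2 2 GC boxes and 2 SMAD boxes (61.6% GC) and Ltbp3 1 SMAD box (47.2% GC). Over all 32851 windows of this length the GC box was in 32.7%, the SMAD box in 42.2%, the TATA box in 12.4%, the E-box in 6.0%, the AP-1 site in 6.7% and the cyclic AMP response element in 1.5%, and the median GC content was 52.4%. The table has no entry for Tgfb3 or Tgfbr3. These matches describe letters in the windows and are not binding sites measured in the annulus.

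The comparison of genotypes at 6 months asks which of these genes differ in level between ENT1-null and WT in the older annulus. There 7 of the 9 genes passed, against 38.8% of all genes tested: 2 rose (21.2% of all genes were higher) and 5 fell (17.6% were lower). The ligands split, with Tgfb1 higher and Tgfb2 and Tgfb3 lower in ENT1-null. Of the receptors Tgfbr1 and Tgfbr3 fell, and of the latency proteins Ltbp2 rose and Ltbp3 fell. Tgfbr2 and Ltbp1 did not pass. The median difference of the 9 was −0.65, beside −0.03 over all genes tested. The 9 were chosen with earlier results of these data known. How far that choice raised these counts was not tested. In pooled tissue, fewer cells of a type and less RNA per cell cannot be told apart.

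**Figure D1:**
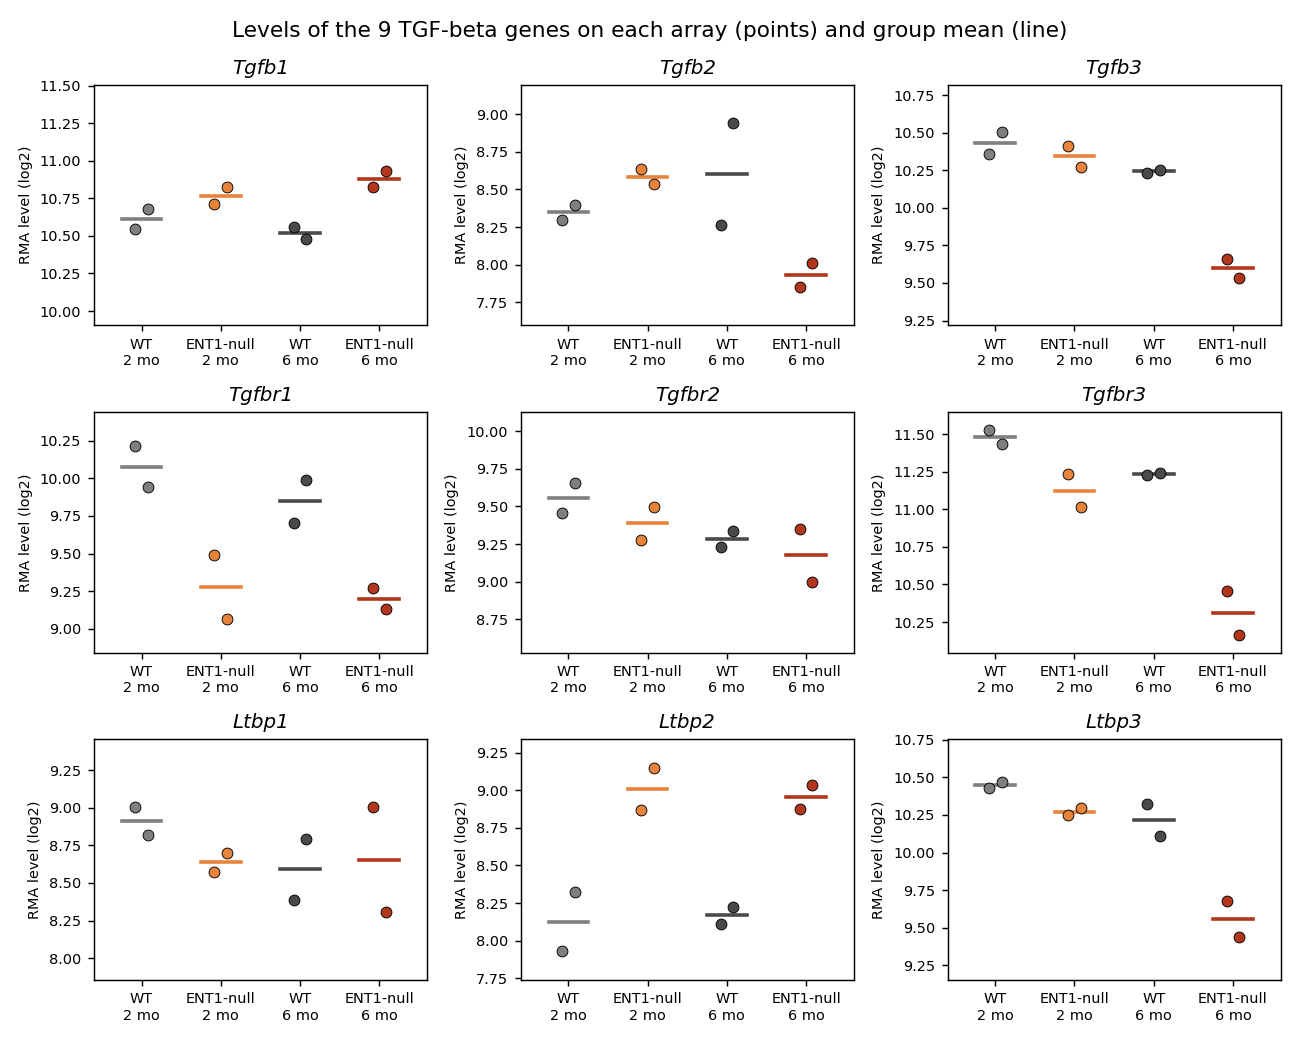
RMA level (log2, vertical axis, each panel spanning the same range) of the 9 genes in the 4 groups, with 1 point per array and a line at the group mean of 2 arrays. Tgfb2, Tgfb3, Tgfbr3 and Ltbp3 were lower on both 6 month ENT1-null arrays than on the other 6 arrays. For Tgfb1, Tgfbr1 and Ltbp2 all 4 null arrays lay on one side of all 4 WT arrays. The share of all genes with either pattern was not counted. Null and WT arrays of 1 age were fully separate for 52.3% of all genes tested at 2 months and 72.3% at 6 months.

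Among the ligands, Tgfb1 is the form made by many cell types and stored in platelets and bone. Its levels were 10.54 and 10.68 in 2 month WT, 10.71 and 10.82 in 2 month ENT1-null, 10.56 and 10.48 in 6 month WT, and 10.82 and 10.93 in 6 month ENT1-null. All 4 null arrays lay above all 4 WT arrays, by a narrow margin at 2 months. At 6 months Tgfb1 rose by 0.36 ± 0.09 (SE, n = 2 and 2, limma adjusted p = 0.0192), 1.28-fold. Leaving out a single 6 month array ended this call for WT array 1 (0.40), WT array 2 (0.32) and null array 2 (0.30). In the same arrays 7 of 8 megakaryocyte and platelet markers were higher, with a median difference of 1.57, and the part of such cells in the Tgfb1 level was not tested.

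Tgfb2 encodes the ligand that depends most on betaglycan for binding its receptors. Its levels were 8.30 and 8.40 in 2 month WT, 8.63 and 8.54 in 2 month ENT1-null, 8.26 and 8.94 in 6 month WT, and 7.85 and 8.01 in 6 month ENT1-null. The null arrays lay above the WT arrays at 2 months and below them at 6 months, and the 2 WT arrays at 6 months were 0.67 apart, the widest gap of this gene in any group. At 6 months Tgfb2 fell by 0.67 ± 0.20 (limma adjusted p = 0.0298), 1.59-fold. The difference was −0.33 with WT array 2 of 6 months left out, where it did not pass, and −1.01 with WT array 1 left out, where it did. Leaving out null array 1 (−0.59) or null array 2 (−0.75) of that age also ended the call, as did a fit of the 6 month arrays alone (−0.67).

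Tgfb3 encodes a ligand made by chondrocytes and tendon cells, among others. Levels were 10.36 and 10.50 in 2 month WT, 10.41 and 10.27 in 2 month ENT1-null, 10.23 and 10.25 in 6 month WT, and 9.66 and 9.53 in 6 month ENT1-null. The genotypes overlapped at 2 months and were well apart at 6 months, where the gap between groups exceeded any gap between arrays of a group. Tgfb3 fell by 0.65 ± 0.10 at 6 months (limma adjusted p = 0.00175), 1.56-fold, and passed in each of the 8 fits that left out 1 array, with values from −0.71 to −0.58.

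Tgfbr1, the type I receptor kinase (ALK5) that phosphorylates Smad2 and Smad3, read 10.22 and 9.94 in 2 month WT, 9.49 and 9.06 in 2 month ENT1-null, 9.71 and 9.99 in 6 month WT, and 9.27 and 9.13 in 6 month ENT1-null. All 4 null arrays lay below all 4 WT arrays. It fell by 0.65 ± 0.17 at 6 months (limma adjusted p = 0.0204), 1.57-fold. Among the 6 month arrays, leaving out WT array 2 (−0.51), null array 1 (−0.72) or null array 2 (−0.58) ended that call. At 2 months the difference was larger in size, −0.80 ± 0.17, and did not pass (limma adjusted p = 0.0697, 95% interval −1.20 to −0.40).

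Tgfbr2, the type II receptor that starts signalling by activating Tgfbr1, differed little. It read 9.46 and 9.66 in 2 month WT, 9.28 and 9.49 in 2 month ENT1-null, 9.23 and 9.34 in 6 month WT, and 9.35 and 8.9998 in 6 month ENT1-null, so that the genotypes overlapped at both ages. The difference was −0.17 ± 0.14 at 2 months (limma adjusted p = 0.55) and −0.11 ± 0.14 at 6 months (limma adjusted p = 0.579). The 95% interval at 6 months was −0.44 to 0.22. That of Tgfbr1, −1.05 to −0.25, overlaps it, while that of Tgfbr3, −1.21 to −0.64, does not. The differences between these receptors were not themselves tested.

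Tgfbr3, the proteoglycan co-receptor betaglycan, had the largest fall of the 9 genes. It read 11.53 and 11.44 in 2 month WT, 11.23 and 11.01 in 2 month ENT1-null, 11.23 and 11.24 in 6 month WT, and 10.46 and 10.17 in 6 month ENT1-null. The null arrays were below the WT arrays at each age, and the 6 month null arrays stood lowest. Tgfbr3 fell by 0.92 ± 0.12 at 6 months (limma adjusted p = 0.0011), 1.90-fold, and passed in all 8 fits that left out 1 array (−1.07 to −0.78). At 2 months the difference was −0.36 ± 0.12 and did not pass (limma adjusted p = 0.172).

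Ltbp1, which binds the latent complex by a covalent link and ties it to fibrillin and fibronectin, showed the widest spread within a group. It read 9.01 and 8.82 in 2 month WT, 8.58 and 8.70 in 2 month ENT1-null, 8.39 and 8.79 in 6 month WT, and 9.003 and 8.31 in 6 month ENT1-null. The 2 null arrays at 6 months, 0.70 apart, lay on either side of the WT arrays. The difference was −0.28 ± 0.23 at 2 months (limma adjusted p = 0.549) and 0.06 ± 0.23 at 6 months (limma adjusted p = 0.842), and the second turned to −0.28 with null array 1 of that age left out.

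Ltbp2 is the member of its family that does not bind latent TGF-beta and is instead a component of microfibrils. It read 7.93 and 8.32 in 2 month WT, 8.87 and 9.15 in 2 month ENT1-null, 8.11 and 8.22 in 6 month WT, and 8.88 and 9.03 in 6 month ENT1-null. All 4 null arrays lay above all 4 WT arrays. It rose by 0.79 ± 0.15 at 6 months (limma adjusted p = 0.00568), 1.72-fold, and passed in all 8 fits that left out 1 array (0.71 to 0.87). At 2 months the difference was 0.89 ± 0.15, just outside the threshold (limma adjusted p = 0.054). It passed there with arrays centred on their medians (0.90) and with a trended and robust eBayes (0.89). No other alternative that kept every array gave a pass. With 1 array left out the difference lay between 0.69 and 1.08.

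Ltbp3, which assists the secretion of latent TGF-beta and is needed for normal growth plates and skeleton, read 10.43 and 10.47 in 2 month WT, 10.25 and 10.30 in 2 month ENT1-null, 10.32 and 10.11 in 6 month WT, and 9.68 and 9.44 in 6 month ENT1-null. The null arrays were below the WT arrays at each age, and those at 6 months were lower than every other array. Ltbp3 fell by 0.66 ± 0.11 at 6 months (limma adjusted p = 0.00306), 1.58-fold, and passed in all 8 fits that left out 1 array (−0.78 to −0.54). At 2 months it gave −0.18 ± 0.11 (limma adjusted p = 0.431).

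**Figure D2:**
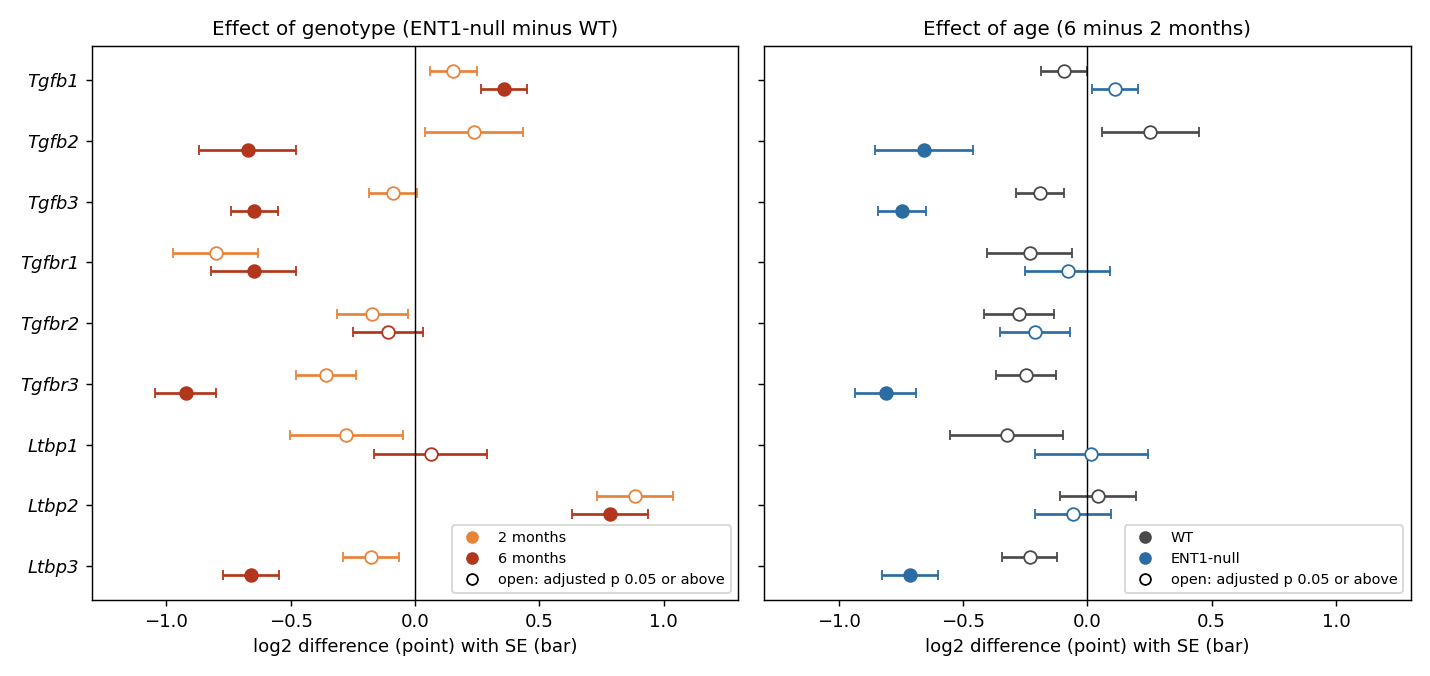
Log2 differences of the 9 genes with their SE, for genotype at each age (left) and for age in each genotype (right), where filled points passed the test and open points did not. In the left panel Tgfbr1 (−0.80 and −0.65) and Ltbp2 (0.89 and 0.79) gave like values at 2 and 6 months. In the right panel Tgfb3 (−0.75), Tgfbr3 (−0.81), Ltbp3 (−0.71) and, at the threshold, Tgfb2 (−0.66) were lower at 6 than at 2 months in ENT1-null. For none of the 9 genes did the change of the genotype difference between the ages pass.

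In the older annulus 4 of these calls, those of Tgfb3, Tgfbr3, Ltbp2 and Ltbp3, passed in every fit that left out 1 array, and 3 did not. Of the 6 month arrays, leaving out WT array 2 or null array 2 brought the count of 7 to 4, leaving out null array 1 to 5 and leaving out WT array 1 to 6. In the same 6 month null arrays 11 of 14 cartilage and annulus markers were lower (median −0.83), 10 of 12 skeletal muscle markers were lower (median −2.34), and all 16 neutrophil markers were higher (median 2.60). Their part in the differences of the 9 genes was not tested. Null and WT arrays were fully separate for 7 of the 9 genes, beside 72.3% of all genes tested, which is near the share of genes at large: 2 genes were higher (35.6% of all genes) and 5 lower (36.8%).

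**Figure D3:**
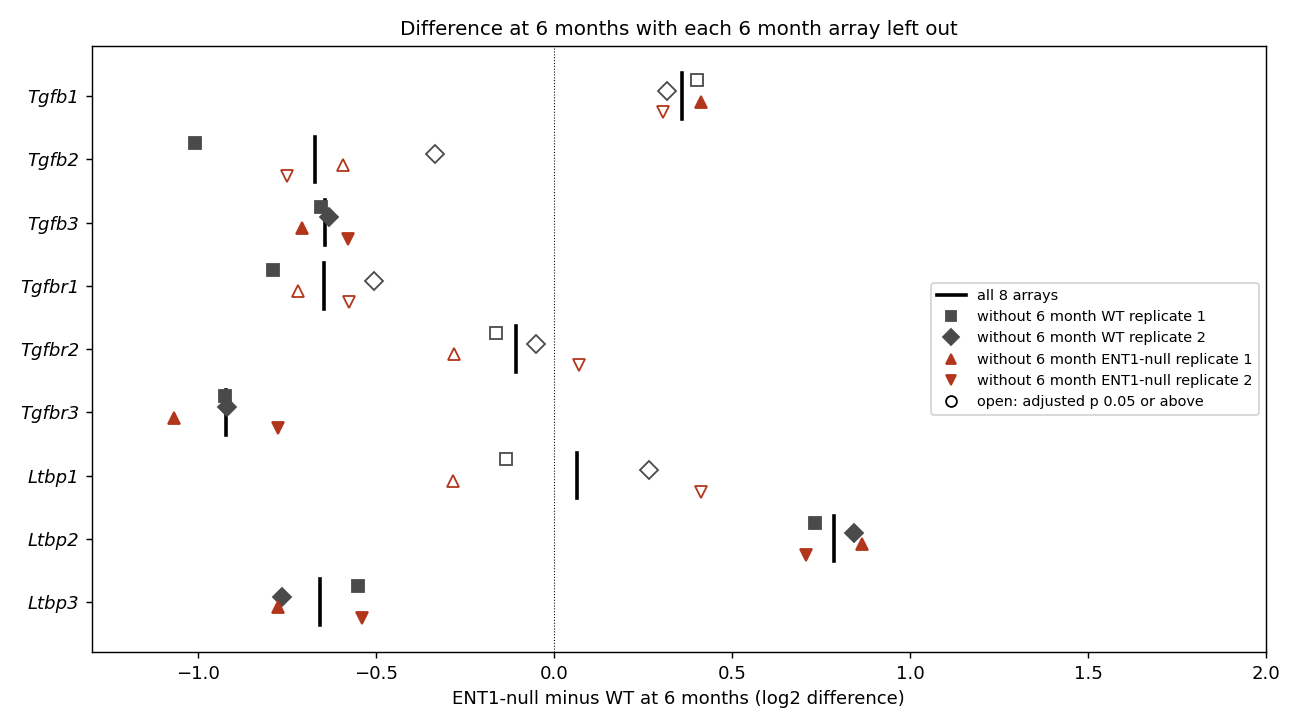
Difference between ENT1-null and WT at 6 months (log2) for each gene with all 8 arrays (line) and with each 6 month array left out in turn (symbols, open where the adjusted p was 0.05 or above). Tgfb2 lay at −1.01 or −0.33 depending on which WT array was left out, and Ltbp1 at −0.28 or 0.41 depending on which null array was.

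The comparison of genotypes at 2 months asks whether the same genes already differ in young mice. None of the 9 genes passed (limma), in a comparison where 0.683% of all genes did (0.296% higher and 0.386% lower). An unadjusted p below 0.05 was found for 3 of the 9 (Tgfbr1, Tgfbr3 and Ltbp2), beside 3008 of all 15526 genes tested. A trended and robust eBayes called 1 of the 9, Ltbp2. The median difference of the 9 was −0.17 (−0.04 over all genes), with 3 genes above and 6 below 0. Null and WT arrays were fully separate for 7 of the 9 genes, 3 higher and 4 lower, beside 52.3% of all genes tested (19% higher and 33.2% lower). Tgfb1 gave 0.15 ± 0.09 (limma adjusted p = 0.406), Tgfb2 0.24 ± 0.20 (adjusted p = 0.549) and Tgfb3 −0.09 ± 0.10 (adjusted p = 0.656).

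The change of the genotype effect between the ages was tested as an interaction. None of the 9 genes passed (limma), where 4.45% of all genes did (2.56% higher and 1.89% lower). An unadjusted p below 0.05 was found for 4 of the 9 (Tgfb2, Tgfb3, Tgfbr3 and Ltbp3), beside 4186 of all 15526 genes tested. The genotype difference of Tgfb3 was lower at 6 than at 2 months by −0.56 ± 0.14 (limma adjusted p = 0.0567, 95% interval −0.87 to −0.24). It passed with a filter at the 50th percentile (−0.56), with quantile normalization applied again (−0.65) and with a trended and robust eBayes (−0.56). No other alternative that kept every array gave a pass for Tgfb3. With 1 array left out its change lay between −0.63 and −0.48. Tgfb2 gave −0.91 ± 0.28 (adjusted p = 0.0896). It passed, at −1.25, with WT array 1 of 6 months left out, and was −0.57 with WT array 2 left out. Tgfbr3 gave −0.56 ± 0.17 (adjusted p = 0.0898) and Ltbp3 −0.48 ± 0.16 (adjusted p = 0.104). For Tgfbr1 the change was 0.15 ± 0.24 (adjusted p = 0.737, 95% interval −0.41 to 0.72) and for Ltbp2 −0.10 ± 0.22 (adjusted p = 0.819, 95% interval −0.60 to 0.41), intervals that hold 0 and also changes of some size either way.

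Age was compared within each genotype. In WT none of the 9 genes passed (limma), and over all genes tested the share that passed was 0%. An unadjusted p below 0.05 was found for none of the 9, beside 2067 of all 15526 genes tested. None of the 9 passed with a trended and robust eBayes either. The differences ran from −0.32 (Ltbp1) to 0.25 (Tgfb2), with 7 genes below 0, and the ages were fully separate for 5 of the 9, all lower, beside 49.4% of all genes tested (13.5% higher and 35.9% lower). In ENT1-null 4 of the 9 genes were lower at 6 months and none higher, beside 22.2% of all genes tested (10.2% lower and 11.9% higher). The ages were fully separate for 5 of the 9, 1 higher and 4 lower, beside 59.8% of all genes (30% higher and 29.8% lower). Tgfbr3 fell by 0.81 ± 0.12 (limma adjusted p = 0.00488), Tgfb3 by 0.75 ± 0.10 (adjusted p = 0.00344) and Ltbp3 by 0.71 ± 0.11 (adjusted p = 0.00545), and each of these passed in all 8 fits that left out 1 array. Tgfb2 fell by 0.66 ± 0.20 (adjusted p = 0.0499), a call at the threshold that held in 2 of the 8 such fits, those that left out a 6 month WT array, with adjusted p from 0.00765 to 0.191 over its alternatives. Tgfb1 gave 0.11 ± 0.09 (adjusted p = 0.453), Tgfbr1 −0.08 ± 0.17 (adjusted p = 0.795) and Ltbp2 −0.06 ± 0.15 (adjusted p = 0.837). The genotype comparisons and the age comparisons share arrays. The same low 6 month null arrays thus enter the falls at 6 months and the falls with age. By age in ENT1-null, 12 of 14 cartilage and annulus markers were lower and none higher (median −0.92). Of 12 skeletal muscle markers 1 was lower and none higher (median −1.62). Of 16 neutrophil markers 1 was higher and none lower (median 0.95). Their part in the falls with age was not tested.

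The other genes of the pathway were read from 4 lists, also chosen with earlier results of these data known. Among 18 Smads and intracellular regulators at 6 months, 1 gene was higher, 7 were lower and 10 did not pass (median −0.21), beside 38.8% of all genes called, 21.2% higher and 17.6% lower. The share called was near that of all genes. Smad3, which carries the receptor signal to the nucleus, fell by 0.59 ± 0.09 (limma adjusted p = 0.00244), and Zfyve9, the anchor protein SARA that presents Smads to the receptor, by 0.76 ± 0.11 (adjusted p = 0.00152). Skil (SnoN) fell by 0.66 ± 0.12 (adjusted p = 0.00381) and Ski by 0.37 ± 0.09 (adjusted p = 0.0118), both co-repressors that bind Smads. Ski did not pass in 1 of its 17 alternatives (adjusted p up to 0.0744). The 8 calls of the list became 3 when WT array 2 of 6 months was left out, and 4 for WT array 1 or null array 2.

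Of 9 co-receptors, alternative receptors and decoys, 4 were higher, 4 lower and 1 did not pass at 6 months (median 0.31), beside 21.2% higher and 17.6% lower of all genes. Cd109, a surface protein that restrains TGF-beta receptors, fell by 1.05 ± 0.17 (limma adjusted p = 0.00228), Bmpr2, the type II receptor of BMP ligands, by 0.73 ± 0.09 (adjusted p = 0.000852) and Acvr1, a type I receptor of the BMP and activin branch, by 0.70 ± 0.10 (adjusted p = 0.00138). Lrg1, a secreted glycoprotein that acts on TGF-beta signalling in endothelium and is also made by neutrophils, rose by 1.51 ± 0.18 (adjusted p = 0.000849). The neutrophil markers rose in the same arrays, as given above, and their part in the Lrg1 level was not tested. The 8 calls became 5 when WT array 1 or null array 1 of 6 months was left out.

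Of 21 tested genes of latent TGF-beta storage and activation, 4 were higher, 9 lower and 8 did not pass at 6 months (median −0.28). Over all genes 21.2% were higher, near the share in this list, and 17.6% lower. Thbs1, thrombospondin 1, an activator of the latent complex, fell by 0.94 ± 0.12 (limma adjusted p = 0.00091), and Ltbp4, the remaining member of the latency protein family, by 0.64 ± 0.09 (adjusted p = 0.00133). Fmod, fibromodulin, fell by 0.87 ± 0.08 (adjusted p = 0.00045) and Aspn, asporin, by 0.73 ± 0.14 (adjusted p = 0.0046), both small leucine-rich proteoglycans able to bind TGF-beta. The 4 higher genes were Lrrc32 and Nrros, which hold latent TGF-beta on lymphoid and myeloid cells, Itgb3, an integrin chain of platelets and osteoclasts, and Mmp9, a protease of neutrophils and osteoclasts. Their differences were 0.65 ± 0.15, 0.66 ± 0.17, 1.74 ± 0.35 and 1.88 ± 0.38 (adjusted p = 0.0113, 0.0194, 0.00629 and 0.00688), and these 4 are named with their values in view. Blood cell and osteoclast markers were higher in the same arrays (all 7 tested osteoclast markers, Itgb3 among them, with a median of 1.26), and their part was not tested. The 13 calls became 7 when WT array 1 of 6 months was left out and 6 for null array 2.

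Of 20 tested genes known to be induced by TGF-beta, 3 were higher, 7 lower and 10 did not pass at 6 months (median −0.35), beside 21.2% higher and 17.6% lower of all genes. In this list 5 genes also stand in the lists above: Skil and Pmepa1, which fell, and Smad7, Fn1 and Itgb6, which did not pass. Mkx, the transcription factor Mohawk of tendon and annulus, fell by 1.40 ± 0.15 (limma adjusted p = 0.000583), Ccn2, connective tissue growth factor, by 0.98 ± 0.11 (adjusted p = 0.000616) and Id1 by 0.49 ± 0.09 (adjusted p = 0.00373). Timp1, an inhibitor of metalloproteinases, rose by 1.17 ± 0.15 (adjusted p = 0.00109). The other higher genes were the type I collagen chains Col1a1 (1.35 ± 0.33, adjusted p = 0.0143) and Col1a2 (1.19 ± 0.25, adjusted p = 0.00775), also named with their values in view. Mkx, and Fmod above, also count among the 10 tested markers of fibrous annulus and tendon, of which 5 were lower and none higher (median −0.53). The 10 calls became 6 when WT array 2 of 6 months was left out. At 2 months Timp1 alone of the 4 lists passed (1.03 ± 0.15, limma adjusted p = 0.0443). That call was lost with no filter, with all probe sets, with the replicate block and in a fit of the 2 month arrays alone. It was also lost when WT array 1 of 2 months or any 1 of the 4 null arrays was left out.

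**Figure D4:**
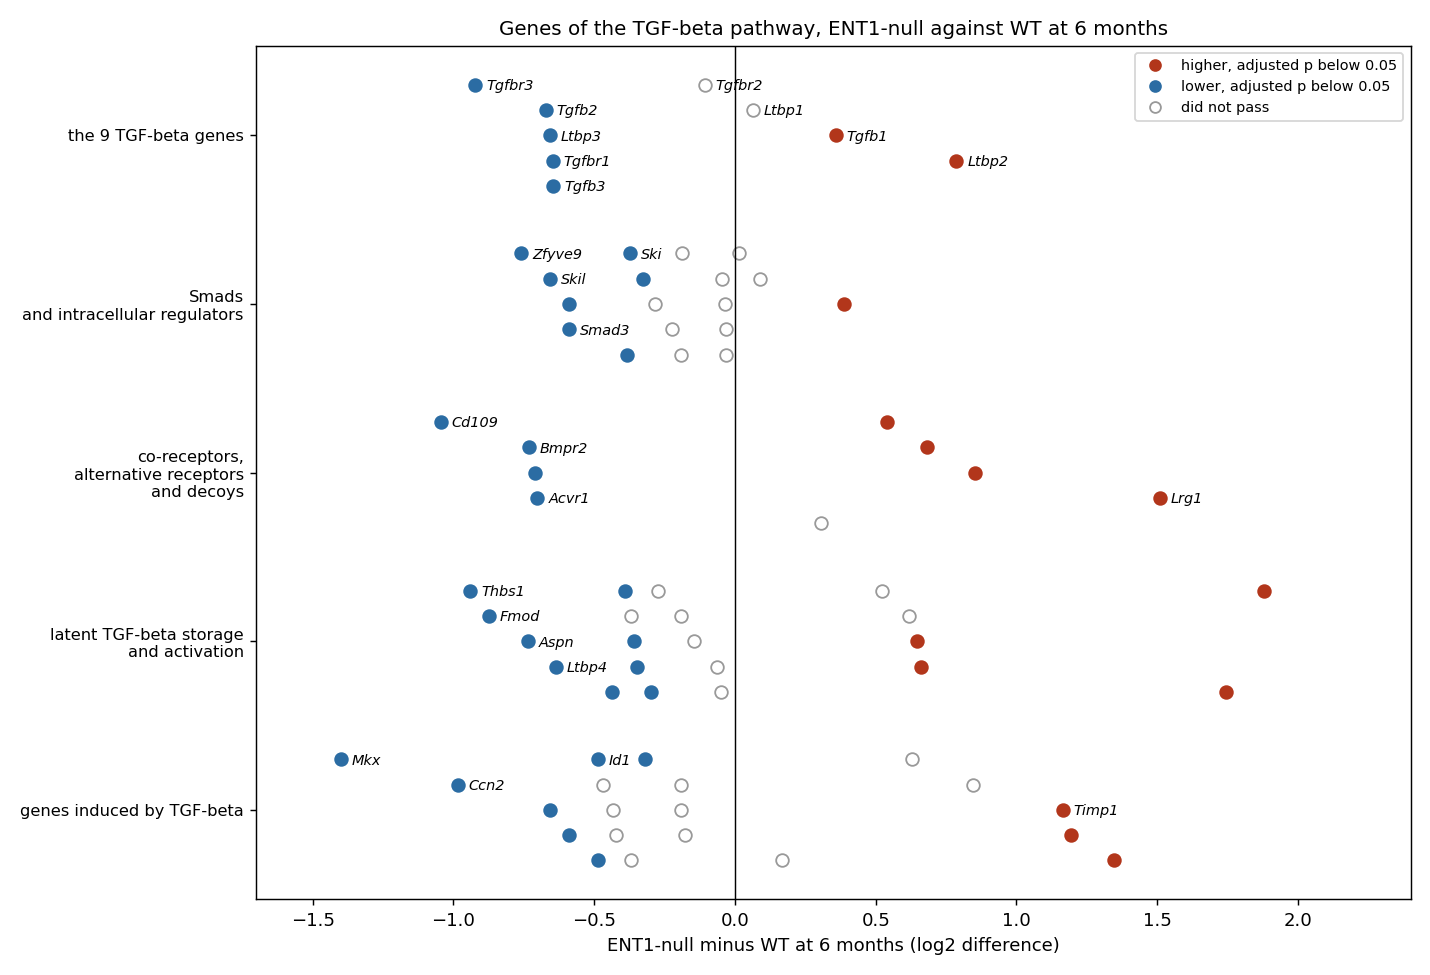
Log2 difference between ENT1-null and WT at 6 months for the 9 genes and the tested genes of 4 pathway lists, 1 point per gene, red where higher and blue where lower at an adjusted p below 0.05 and open where the test was not passed. In each list the genes lay on both sides of 0, from Mkx at −1.40 to Mmp9 at 1.88.

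The genes nearest in pattern to each of the 7 that passed were found by the root mean square difference between log2 levels over the 8 arrays, after centring each gene on its mean. Atp5md, Stk11 and Fam171a1 were nearest to Tgfb1 (0.03 for all), Hoxb5, Cmklr1 and Podn to Tgfb2 (0.13 to 0.14) and Tmem39a, Ryk and Crim1 to Tgfb3 (0.07). Mpp7, Slc38a1 and Pon3 were nearest to Tgfbr1 (0.12), and Phtf2, Npr2 and Carmil1 to Tgfbr3 (0.05 to 0.06). Slitrk6, Cdh11 and Bcl3 were nearest to Ltbp2 (0.12 to 0.15), and Gpt2, Fam160a1 and Fam114a1 to Ltbp3 (0.06). The small distances of Tgfb1 come with its narrow range over the arrays, so that distances do not compare between the 7 genes.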

How the data were processed

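RNA of 8 pools was measured on Affymetrix arrays, after Trizol extraction and labelling of 200 ng, per the labels' protocols. The deposited values are log2 levels that the authors made by RMA, per the submitters' processing notes, and neither the RMA version nor the array's build is stated there. RMA makes the arrays' distributions alike, so that a change shared by most genes is not seen.

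Of 41345 probe sets, 23521 had 1 gene symbol, 1814 several and 16010 none. Each gene was read from its single-gene probe set with the highest mean, and tests used genes whose mean reached the 30th percentile (6.21 on the log2 scale). A second probe set of Ltbp2, shared with another symbol, was not used. A limma 3.58.1 model (R 4.3.3) with 4 group means, tested on simulated data, gave 5 comparisons by eBayes with Benjamini-Hochberg adjustment. Alternatives changed the filter, scaling, probe sets, eBayes options and arrays, or added a replicate block. Named were the 9 genes, Slc29a1, the 4 largest statistics at 6 months per pathway list and the 3 nearest patterns per gene, passing over predicted genes, chemosensory receptors and small RNAs. Fbn2 and Plg were below the filter, and Fbn1 was not analysed here. The members and lists were chosen with earlier results of these data known.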

Additional observations from a re-analysis of the deposited data

Results flagged for a closer look

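The genotype difference changed between the ages, by the interaction test, in 3 of the named pathway genes, beside 4.45% of all genes tested. The named genes were picked by their statistic at 6 months, which enters the interaction, so the picking favours such calls. Fmod gave −0.19 ± 0.08 at 2 and −0.87 ± 0.08 at 6 months, a change of −0.68 ± 0.12 (limma adjusted p = 0.0384), Mkx −0.39 ± 0.15 and −1.40 ± 0.15, a change of −1.01 ± 0.21 (adjusted p = 0.0474), and Bmpr2 −0.16 ± 0.09 and −0.73 ± 0.09, a change of −0.58 ± 0.13 (adjusted p = 0.0497). In each, both null arrays at 6 months lay below both WT arrays, as for 36.8% of all genes tested. The picking favours this separation too. Itgb8, chosen after its values were seen, passed as well (0.35 ± 0.10 at 2 and −0.39 ± 0.10 at 6 months, a change of −0.74 ± 0.15, adjusted p = 0.0433). No gene of these lists passed in any of the 8 fits that left out 1 array, or with no filter on low levels.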

How the results depend on the processing

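Of 756 values of the 9 genes under the alternatives, 707 kept direction and side of the threshold, 21 kept direction and lost the threshold, 7 kept direction and passed it, and 21, none of them past the threshold, changed sign. At 6 months the count of 7 stayed between 6 and 7 under all alternatives that kept every 6 month array, and was 4 to 7 with 1 array left out. At 2 months the count of 0 became 1 with centred arrays and with trend and robust eBayes, and lay between 0 and 1 with 1 array left out. In the interaction the 0 became 1 with a filter at the 50th percentile, with quantile normalization applied again and with trend and robust eBayes, and lay between 0 and 1 with 1 array left out. Over all genes the 106 calls at 2 months (46 higher, 60 lower) were 29 with no filter, 161 (96 higher, 65 lower) with centred arrays, 35 with all probe sets, 259 with trend and robust eBayes, 0 with only the groups compared, and 0 to 358 with 1 array left out. The 691 of the interaction (398 higher, 293 lower) were 11 with no filter, 1102 with trend and robust eBayes, 706 (299 higher, 407 lower) after quantile normalization, and 0 to 319 with 1 array left out. With 1 array left out the 6022 calls at 6 months lay between 3670 and 5887, and the 3442 by age in ENT1-null between 1519 and 3160. A lone array left in a group was assumed to vary like the others, and the cause of these shifts was not tested.

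Changes of sign came with quantile normalization applied again for Ltbp1 at 6 months (−0.022) and by age in ENT1-null (−0.026) and for Tgfbr2 in the interaction (−0.035). With 1 array left out Ltbp1 lay between −0.28 and 0.41 at 6 months, −0.33 and 0.37 by age in ENT1-null, and −0.0082 and 0.69 in the interaction. Ltbp2 lay between −0.16 and 0.24 by age in WT, −0.20 and 0.083 by age in ENT1-null, and −0.30 and 0.10 in the interaction. Tgfbr2 lay between −0.28 and 0.069 at 6 months and −0.11 and 0.24 in the interaction, Tgfbr1 between −0.29 and 0.14 by age in ENT1-null and −0.061 and 0.37 in the interaction, and Tgfb2 between −0.083 and 0.59 by age in WT.

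The difference between array 1 and array 2 within each group was correlated between groups across genes, at −0.40 to 0.42. The highest value was between WT and ENT1-null at 2 months, and the lowest between WT at 2 and at 6 months. The numbers thus did not pair the arrays across all groups. Whether they did so at 2 months cannot be told from these values. The replicate block left the counts of the 9 genes as they were (7 at 6 months) and gave 1 call over all genes at 2 months and 353 in the interaction. The number of arrays limits the precision.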

Other observations

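Blood and marrow markers outside those given above were higher as well in the 6 month null annulus (limma, adjusted p below 0.05). These were 5 of 5 tested erythroid, 4 of 4 eosinophil and mast cell, 9 of 11 macrophage, 7 of 8 B and plasma cell and 3 of 5 T and NK cell markers, with none lower. Endothelial markers were higher in 3 of 10, near the 21.2% of all genes that were higher, and osteoblast and osteocyte markers in 3 of 7, with 1 of the latter lower. None of 6 tested adipocyte markers or of 5 tested markers of nucleus pulposus and notochord passed.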
